A study of Mus musculus with 5 samples.

Results

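The genes described are 35 of the 32285 in the deposited matrices: the 2 cytoplasmic actins and the proteins that bind, nucleate, cap, bundle, pull on or anchor actin filaments, together with the intermediate filament gene Vim. They were matched by symbol and not filtered by their values, but the list was chosen with earlier results of these data known. A neutrophil moves by pushing out a sheet of branched actin at its front and contracting myosin II at its rear. Thymosins and profilin hold the monomer pool, the Arp2/3 complex branches new filaments once WASP-family proteins activate it, capping proteins stop growth, and cofilin with its partners returns old filaments to the pool. Ezrin and moesin tie filaments to the plasma membrane, and loss of several of these proteins is known to impair migration of white blood cells.

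The cells were neutrophils that flow cytometry had sorted out of bone marrow, peripheral blood and lung of female wild-type C57BL/6J mice, read with 10x Chromium 3′ chemistry. In the 3 conditions mice bore AT3-gcsf tumours, AT3 tumours or no tumour (naive). AT3 is a mouse mammary carcinoma line, and AT3-gcsf is by its name a form of it with G-CSF, the main growth factor of neutrophils. The labels give no age, number of mice, tumour site or tumour size. Each condition filled 1 lane and gave 1 library, so condition and lane cannot be told apart, there are no replicates, and no p-value is given.

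Each library held 3 populations marked by hashtag antibodies named only by number. The labels do not say which tissue carried which tag, so populations are called by library and tag. Cells were kept when 1 tag clearly led and S100a8 and S100a9, the main cytosolic proteins of neutrophils, made up at least 2% of their UMIs (molecule counts). This left 24512 of 26406 called barcodes: 3511, 3695 and 2857 cells in AT3-gcsf MHTO4, MHTO5 and MHTO3, 1971, 2968 and 2499 in AT3 MHTO7, MHTO8 and MHTO10, and 2065, 2207 and 2739 in naive MHTO4, MHTO5 and MHTO3. Depth differed: the median was 6518 to 8603 UMIs per cell in AT3-gcsf populations, 3284 to 9801 in AT3 populations and 2273 to 5407 in naive populations. All 8 neutrophil markers were detected in every population, and at least 99.95% of cells carried a UMI of 1 or more of them. That share alone does not set a cell's type. It was 41.0% to 87.2% for 7 monocyte and macrophage genes and 16.9% to 53.2% for 4 lung epithelium genes. For each other list of cell type markers given below it was at most 28.9%. Levels are counts per 1000000 UMIs of a population (CPM), and intervals are exact Poisson at 95% and cover counting error only. Populations of the same library came through the same lane, so they are no replicates. Libraries shared 20 to 44 cell barcodes pairwise.

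The actin genes themselves are linked to the monomer pool through the serum response factor, whose partner MRTF is held by free actin and whose binding sequence is the CArG box. That box was looked for on both strands in the 250 bases before each RefSeq start site (build GRCm38.p6), where it occurs in 1.47% of 32851 promoters. The 33 members with a promoter entry had 41 promoters, of which 3 held the box, those of Actg1, Myl6 and Arpc4. Actb and Arpc5l had no entry, so they were not searched. Stretches of 100 bases from RefSeq are shown for Actg1, the actin that differed most between populations, for the myosin light chain Myl6, and for Cfl1 (cofilin 1). The level of Cfl1 differed least by total UMIs, but not under other scalings. Each ends at the first annotated coding-transcript exon. Capitals mark the CArG box, CCAAT and GGGCGG, each on either strand. TATAAA was also searched and no stretch shown holds it. CCAAT occurs in 33.8%, GGGCGG in 32.7% and TATAAA in 12.4% of the promoters. The Actg1 stretch lies on chr11:120348543-120348642 (minus strand), that of Myl6 on chr10:128493046-128493145 (minus strand), and that of Cfl1 on chr19:5490355-5490454 (plus strand).
Actg1: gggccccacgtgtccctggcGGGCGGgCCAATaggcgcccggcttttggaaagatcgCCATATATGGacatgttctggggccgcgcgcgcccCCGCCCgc
Myl6: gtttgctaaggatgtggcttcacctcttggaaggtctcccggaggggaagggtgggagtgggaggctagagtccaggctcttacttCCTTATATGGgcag
Cfl1: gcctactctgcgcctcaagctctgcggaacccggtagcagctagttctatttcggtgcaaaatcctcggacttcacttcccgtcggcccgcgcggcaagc
Counted to the RefSeq start site, the box begins 90 bases before it in Actg1 and 50 bases before it in Myl6; the stretches printed end 47 and 36 bases before those sites. The Cfl1 stretch holds none of the 4 sequences. A match is a description of letters and not of binding.

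Of the 35 members, 34 reached 20 CPM in at least 1 sum of every comparison. Evl, an elongation factor of the Ena/VASP family, did not: it was at 0.0921 to 0.390 CPM in AT3-gcsf, 0.0951 to 1.31 CPM in AT3 and 0.623 to 2.33 CPM in naive populations. The members together made up 4.96% to 5.18% of UMIs in AT3-gcsf, 5.70% to 5.90% in AT3 and 6.09% to 7.31% in naive populations. These 3 ranges do not overlap by totals, where the log2 ratio to naive was -0.39 for AT3-gcsf and -0.22 for AT3; scaled by TMM factors, which set libraries level over most genes, it was 0.0774 and 0.24, so its direction depends on the scaling. S100a8 and S100a9 alone made up 27.0% to 29.7% of UMIs in AT3-gcsf, 25.5% to 39.5% in AT3 and 13.1% to 37.3% in naive populations, so what share the other genes can reach also differed. Mitochondrial UMIs made up 1.33% to 1.57% in AT3-gcsf, 0.689% to 0.904% in AT3 and 0.301% to 0.469% in naive populations, in the opposite order of conditions to the members, and their part in the results was not tested.

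**Figure D1:**
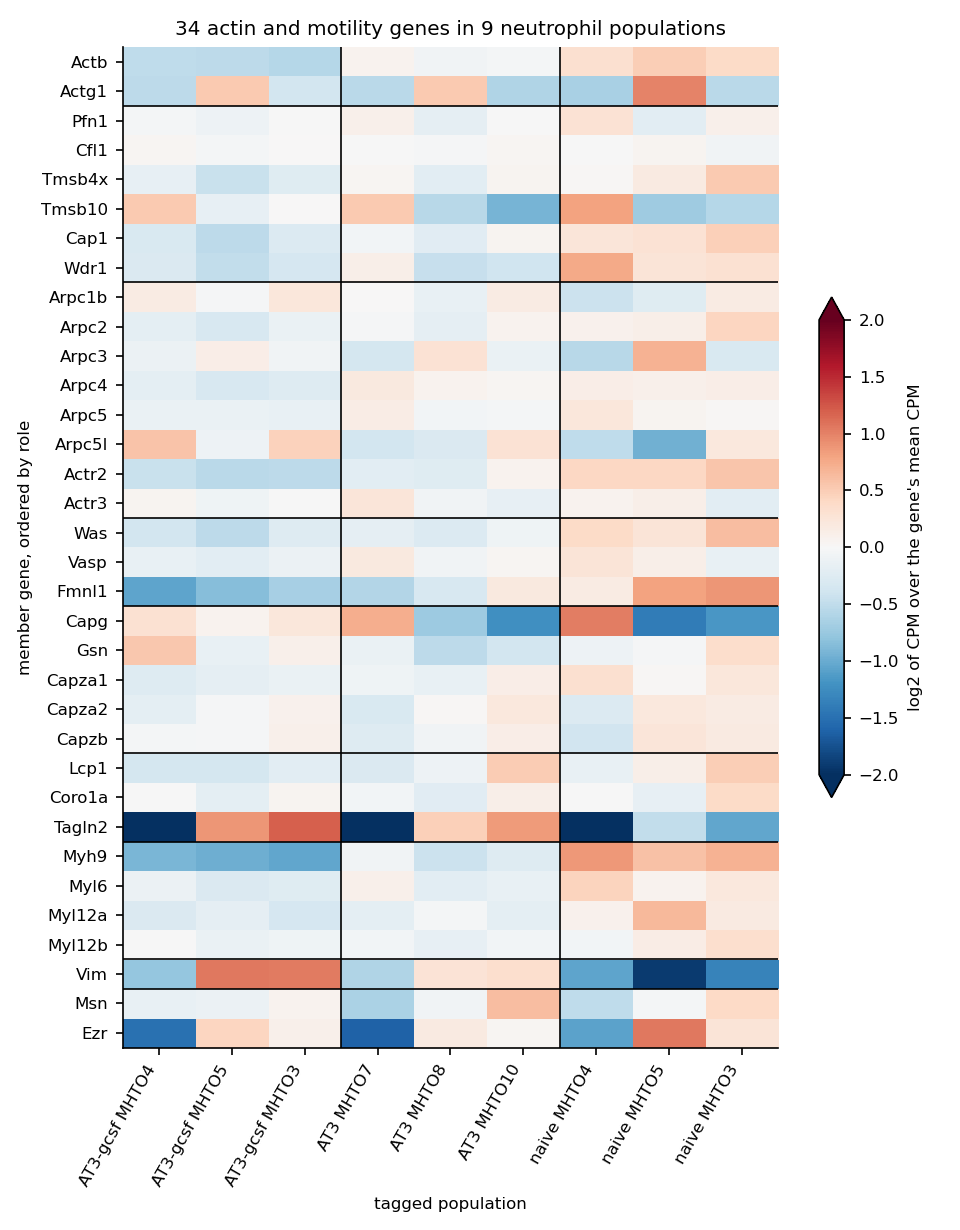
Level of the 34 measured members (rows, by role, with a line between roles) in 9 populations (columns, AT3-gcsf, AT3 and naive from left to right), as the log2 of CPM over the gene's mean CPM, by total UMIs. Tagln2 passes the low end of the colour scale in AT3-gcsf MHTO4, AT3 MHTO7 and naive MHTO4, and Cfl1, at 1040 to 1133 CPM, is nearly white throughout.

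Beta-actin (Actb, chromosome 5: 142903115 to 142906754, GENCODE vM21 on mm10) followed the order of the conditions. It had 9466, 9365 and 9128 CPM in AT3-gcsf MHTO4, MHTO5 and MHTO3, 14160, 12822 and 13052 CPM in AT3 MHTO7, MHTO8 and MHTO10, and 16763, 18929 and 17645 CPM in naive MHTO4, MHTO5 and MHTO3. All AT3-gcsf populations lay below all AT3 populations, and these below all naive populations. The log2 ratio was -0.91 for AT3-gcsf against naive, -0.39 for AT3 against naive and -0.52 for AT3-gcsf against AT3. The same strict order held for Cap1, Actr2 and Myh9 and so for 4 of 34 members, 11.8%, against 4.32% of 3586 genes of at least 20 CPM on average. The opposite order held for 0 members and 2.26% of genes.

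This order depends on how populations are scaled. With TMM factors, which take most genes as not differing, the median log2 ratio of all genes moves to 0.10 for AT3 against naive, from -0.34 by totals, and to 0.12 for AT3-gcsf against naive, from -0.37. The strict order then holds for 0 members, against 2.59% of 3552 genes. Actb in AT3 against naive is then at 0.07, and Cap1 at 0.05. For AT3-gcsf against naive, Actb stays at -0.44, Actr2 at -0.47 and Myh9 at -1.22 under TMM, and for AT3-gcsf against AT3, where that median is near 0 either way, Actb is at -0.51. With S100a8 and S100a9 left out of the totals, the strict order holds for Actr2, Fmnl1 and Myh9, against 4.42% of 4232 genes. Statements on the order of populations and conditions below are by total UMIs, and those on AT3-gcsf against naive that hold under TMM too are for Cap1, Actr2, Was, Fmnl1 and Myh9, which were lower without overlap, and Vim, which was higher.

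Gamma-actin (Actg1, chromosome 11: 120345690 to 120348542) did not follow the conditions. It had 3749, 7668 and 4171 CPM in AT3-gcsf MHTO4, MHTO5 and MHTO3, 3672, 7691 and 3538 CPM in AT3 MHTO7, MHTO8 and MHTO10, and 3419, 10682 and 3683 CPM in naive MHTO4, MHTO5 and MHTO3. In each library 1 population was high, MHTO5 in AT3-gcsf, MHTO8 in AT3 and MHTO5 in naive, and the other two were close together. Its log2 ratio was 0.88 for AT3-gcsf MHTO5 against MHTO3, 1.12 for AT3 MHTO8 against MHTO10 and 1.53 for naive MHTO5 against MHTO3.

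The share of Actg1 among the UMIs of both actins needs no scaling. It was 28.4%, 45.0% and 31.4% in AT3-gcsf MHTO4, MHTO5 and MHTO3, 20.6%, 37.5% and 21.3% in AT3 MHTO7, MHTO8 and MHTO10, and 16.9%, 36.1% and 17.3% in naive MHTO4, MHTO5 and MHTO3. The widest exact (Clopper-Pearson) 95% interval, that of naive MHTO5, ran from 35.9% to 36.3%. The high population had the highest share in each library, and all 3 AT3-gcsf populations exceeded the AT3 and naive populations with low Actg1. The 2 coding sequences are near-identical, and reads that fit both could not be split between them, so these levels carry that uncertainty.

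Among the proteins of the monomer pool, the beta-thymosin Tmsb4x had 17584, 14368 and 16634 CPM in AT3-gcsf MHTO4, MHTO5 and MHTO3, and 19921, 22337 and 28375 CPM in naive MHTO4, MHTO5 and MHTO3. AT3 MHTO7, MHTO8 and MHTO10, at 20267, 16899 and 20498 CPM, overlapped both. Cap1, which helps recycle cofilin-bound actin, had 296, 252 and 301 CPM in AT3-gcsf, 352, 312 and 380 CPM in AT3, and 430, 445 and 508 CPM in naive populations, in the tag order given above. Wdr1, a cofactor of cofilin, had 132, 115 and 128 CPM in AT3-gcsf, 175, 118 and 123 CPM in AT3, and 274 and 194 CPM in naive MHTO4 and MHTO5, with naive MHTO3 between these. Its log2 ratio to naive was -0.89 in AT3-gcsf and -0.69 in AT3. Profilin 1 (Pfn1) ranged from 2293 CPM in naive MHTO5 to 3265 CPM in naive MHTO4, with all AT3-gcsf and AT3 populations between.

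Cofilin 1 (Cfl1, chromosome 19: 5490455 to 5495201), which severs old filaments, had 1121, 1060 and 1096 CPM in AT3-gcsf MHTO4, MHTO5 and MHTO3, 1079, 1077 and 1123 CPM in AT3 MHTO7, MHTO8 and MHTO10, and 1083, 1133 and 1040 CPM in naive MHTO4, MHTO5 and MHTO3. The highest was 1.09 times the lowest, the smallest such ratio among 1048 genes averaging at least 100 CPM, whose median is 2.96. The median over the 32 members among them is 1.98. It was again the smallest in cells thinned to 1000 UMIs, at 1.10, and without cells holding markers of certain other cell types (listed below), at 1.08, but not under other scalings. Under TMM scaling it is 1.99, rank 270 of 1038, and without S100a8 and S100a9 in the totals 1.44, rank 62 of 1404.

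**Figure D2:**
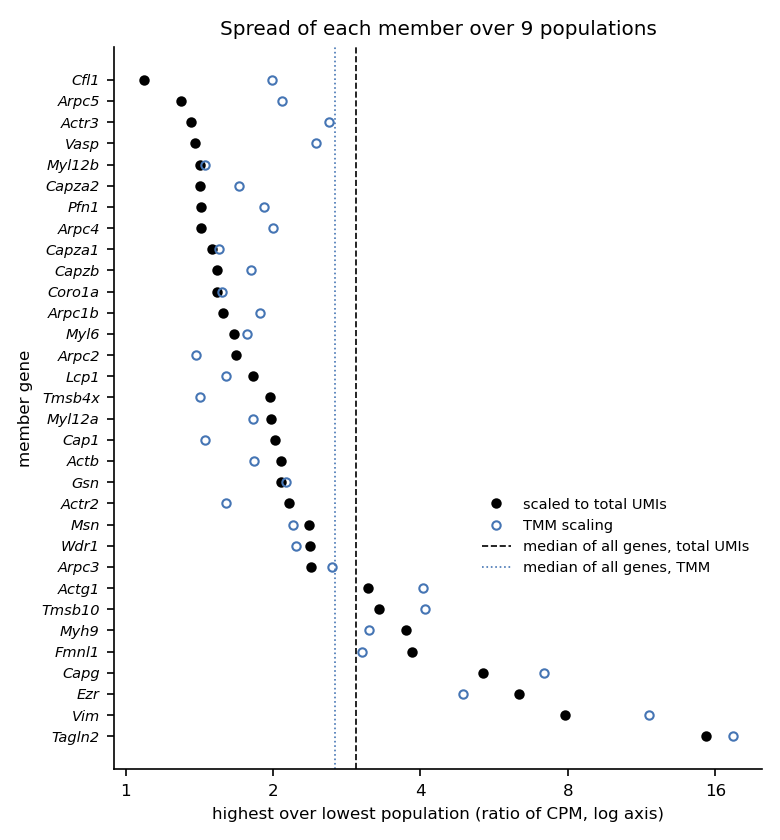
Ratio of the highest to the lowest CPM of 9 populations (x axis, log scale) for the members averaging at least 100 CPM (y axis), by total UMIs (filled) and by TMM scaling (open); vertical lines mark the medians of all such genes, 2.96 and 2.67. Cfl1 is lowest by totals at 1.09 but stands at 1.99 by TMM, while Tagln2 is highest by both, at 15.3 and 17.4.

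The 8 members of the Arp2/3 complex made up 5521 to 5798 CPM in AT3-gcsf, 5810 to 5947 CPM in AT3 and 5455 to 6702 CPM in naive populations, and naive overlapped both of the others. Single subunits did not move together. Actr2, the Arp2 subunit, had 187.5, 175 and 178 CPM in AT3-gcsf, 220, 216 and 268 CPM in AT3, and 339, 339 and 377 CPM in naive populations. Actr3, the Arp3 subunit, had 701 to 774 CPM in AT3-gcsf, 670 to 881 CPM in AT3 and 647 to 812 CPM in naive populations, and its log2 ratios to naive were -0.04 for AT3-gcsf and 0.04 for AT3.

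Arpc2, a core subunit, had 951, 871 and 984 CPM in AT3-gcsf, 1066, 958 and 1133 CPM in AT3, and 1150.3, 1175 and 1465 CPM in naive populations, and naive lay above both. Its core partner Arpc4 had 263, 243 and 252 CPM in AT3-gcsf, 347, 317 and 311 CPM in AT3, and 332, 323 and 331 CPM in naive populations. Arpc5 had 692, 692 and 686 CPM in AT3-gcsf, 842, 735 and 741 CPM in AT3, and 889, 785 and 774 CPM in naive populations. For both, AT3-gcsf lay below the AT3 and naive populations, which overlapped each other. Arpc3 paralleled Actg1: it had 1134, 1349 and 1172 CPM in AT3-gcsf MHTO4, MHTO5 and MHTO3, 967, 1511 and 1121 CPM in AT3 MHTO7, MHTO8 and MHTO10, and 835, 2000 and 992 CPM in naive MHTO4, MHTO5 and MHTO3. The population high in Actg1 was the highest of its library for Arpc3 too. Arpc1b, the subunit form that prevails in blood cells, had 1458 to 1738 CPM in AT3-gcsf, 1333 to 1662 CPM in AT3 and 1102 to 1671 CPM in naive populations. The isoform Arpc5l stayed at 17.3 to 50.01 CPM over the 9 populations.

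Of the genes that start and extend filaments, the formin Fmnl1 showed the widest range. It had 122, 139 and 159 CPM in AT3-gcsf MHTO4, MHTO5 and MHTO3, 169, 202 and 289 CPM in AT3 MHTO7, MHTO8 and MHTO10, and 284, 444 and 467 CPM in naive MHTO4, MHTO5 and MHTO3. All AT3-gcsf values lay below all others, while AT3 MHTO10 exceeded naive MHTO4. Its log2 ratio was -1.40 for AT3-gcsf against naive, and -0.94 under TMM scaling. Was, the activator of the Arp2/3 complex that is mutated in Wiskott-Aldrich syndrome, had 52.6, 47.1 and 57.02 CPM in AT3-gcsf, 59.8, 56.4 and 64.0 CPM in AT3, and 88.4, 80.9 and 104.2 CPM in naive populations, with naive above the rest. Vasp, which extends filaments, had 508, 485 and 520.2 CPM in AT3-gcsf, 643, 535 and 574 CPM in AT3, and 671, 610.1 and 504 CPM in naive populations, and AT3-gcsf lay below AT3 without overlap.

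The myosin II heavy chain Myh9 (chromosome 15: 77760587 to 77842175), the motor of rear contraction, differed most of the members that were lower. It had 163, 156 and 149 CPM in AT3-gcsf MHTO4, MHTO5 and MHTO3, 290, 227 and 256 CPM in AT3 MHTO7, MHTO8 and MHTO10, and 556, 461 and 493 CPM in naive MHTO4, MHTO5 and MHTO3. No population of one condition overlapped those of another by totals, while under TMM scaling AT3 MHTO7 exceeded naive MHTO3. By totals, the summed level of AT3-gcsf was 0.304 times that of naive (0.297 to 0.311), and that of AT3 0.503 times that of naive (0.491 to 0.516). AT3-gcsf was at 0.604 times AT3 (0.589 to 0.618). Under TMM scaling AT3-gcsf and AT3 stood closer to naive, and these intervals do not cover the choice of scaling. In cells thinned to 1000 UMIs, 13.5% to 14.7% of AT3-gcsf, 18.3% to 24.4% of AT3 and 36.2% to 43.0% of naive cells carried a Myh9 UMI. Unthinned, these shares were 58.5% to 68.6%, 56.6% to 83.6% and 65.5% to 88.1%, in libraries of unequal depth.

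The light chains of myosin II differed less than the heavy chain. Myl6 had 1080.4, 955 and 984 CPM in AT3-gcsf, 1256, 1013 and 1061 CPM in AT3, and 1593, 1227 and 1358 CPM in naive populations, so AT3-gcsf and naive did not overlap. Myl12a had 253, 272 and 245 CPM in AT3-gcsf, 269, 299 and 269 CPM in AT3, and 327, 483 and 347 CPM in naive populations, with naive above the rest. Myl12b, its near-identical neighbour on chromosome 17, had 875 to 955 CPM in AT3-gcsf, 861 to 930 CPM in AT3 and 925 to 1220 CPM in naive populations, and reads that fit both copies could not be split.

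**Figure D3:**
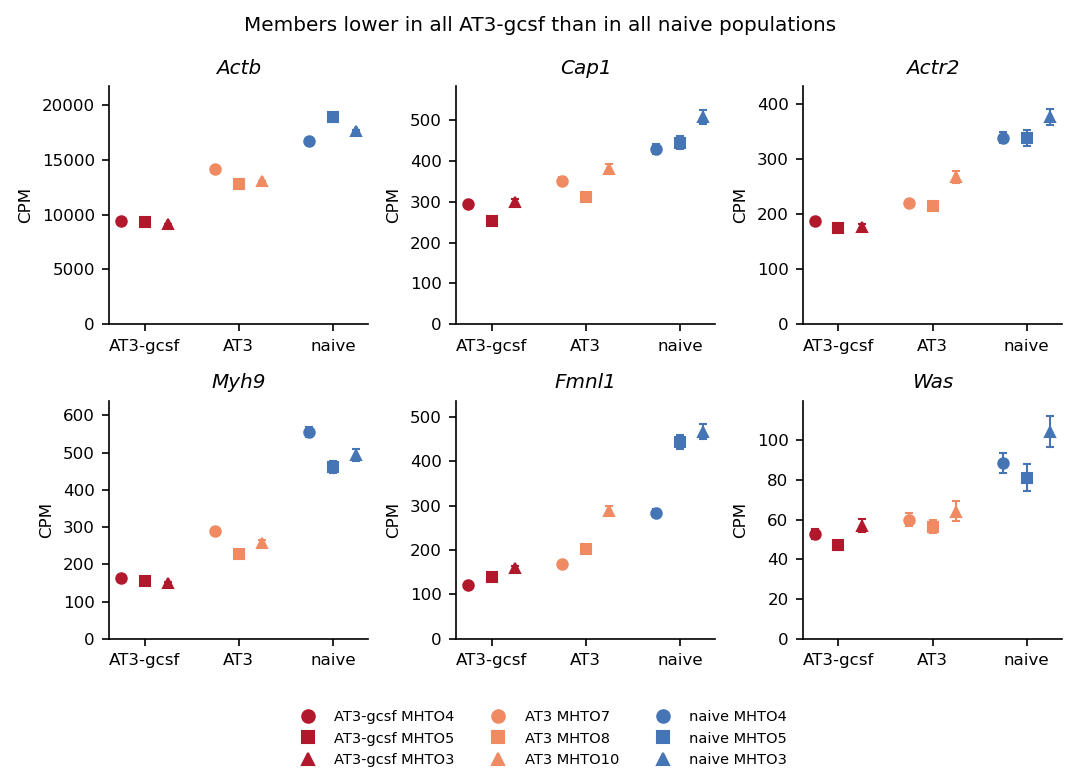
CPM by total UMIs (y axes from 0) of Actb, Cap1, Actr2, Myh9, Fmnl1 and Was in the 3 populations of each condition (x axes); bars are exact 95% Poisson intervals. All AT3-gcsf points lie below all naive points, which under TMM scaling still holds for Cap1, Actr2, Myh9, Fmnl1 and Was but not for Actb.

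Transgelin 2 (Tagln2, chromosome 1: 172500047 to 172507380), an actin cross-linker of white blood cells, varied most among the measured members. It had 56.0, 643 and 799.9 CPM in AT3-gcsf MHTO4, MHTO5 and MHTO3, 52.2, 488 and 634 CPM in AT3 MHTO7, MHTO8 and MHTO10, and 54.9, 249 and 170 CPM in naive MHTO4, MHTO5 and MHTO3. In every library 1 population was low and at nearly the same level, namely AT3-gcsf MHTO4, AT3 MHTO7 and naive MHTO4. The other two populations of each library were far above it, and those of AT3-gcsf and AT3 all lay above those of naive.

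Before thinning, naive MHTO3 lay below AT3-gcsf MHTO4 and AT3 MHTO7 in the share of cells with a Tagln2 UMI. Within each library that share was lowest in AT3-gcsf MHTO4, AT3 MHTO7 and naive MHTO4. It was 19.99%, 84.4% and 81.8% in AT3-gcsf MHTO4, MHTO5 and MHTO3, 21.1%, 66.4% and 60.6% in AT3 MHTO7, MHTO8 and MHTO10, and 15.6%, 31.4% and 19.8% in naive MHTO4, MHTO5 and MHTO3. In cells thinned to 1000 UMIs it was 4.13%, 43.1% and 48.5% in AT3-gcsf, 3.56%, 34.7% and 38.5% in AT3, and 3.21%, 17.3% and 12.1% in naive populations, in the same order. Shallower cells, 22 to 27 in AT3-gcsf, 5 to 33 in AT3 and 41 to 82 in naive populations, were left out. No cell type known to lack Tagln2 was available in these sorted cells, so the part of free RNA was not measured.

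Vimentin (Vim, chromosome 2: 13573927 to 13582826), the intermediate filament protein of white blood cells, was the member that was higher in tumour-bearing mice without overlap. It had 729.9, 2612 and 2581 CPM in AT3-gcsf MHTO4, MHTO5 and MHTO3, 829, 1512 and 1572 CPM in AT3 MHTO7, MHTO8 and MHTO10, and 603, 331 and 498 CPM in naive MHTO4, MHTO5 and MHTO3. All AT3-gcsf and AT3 populations exceeded all naive populations, and AT3-gcsf MHTO4 and AT3 MHTO7 lay nearest to them. The summed level of AT3-gcsf was 3.84 times that of naive (3.77 to 3.90), and that of AT3 2.45 times. In cells thinned to 1000 UMIs, 39.5%, 83.8% and 82.0% of cells carried a Vim UMI in AT3-gcsf MHTO4, MHTO5 and MHTO3, 44.7%, 65.6% and 63.1% in AT3 MHTO7, MHTO8 and MHTO10, and 36.8%, 20.05% and 28.8% in naive MHTO4, MHTO5 and MHTO3. Vim stayed above naive without overlap under TMM scaling, with S100a8 and S100a9 out of the totals, after thinning, and without cells holding markers of certain other cell types (listed below).

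Within populations, cells with more Tagln2 UMIs also had a higher Vim level. In AT3-gcsf MHTO3, Vim was at 1459 CPM in cells without Tagln2, 2236 CPM in cells with 1 to 4 Tagln2 UMIs and 3097 CPM in cells with 5 or more. In AT3 MHTO10 it was at 1002, 1775 and 2195 CPM in the same classes, and in naive MHTO5 at 271, 400 and 680.3 CPM. Ezr also ran upward, at 202, 283 and 322 CPM in AT3-gcsf MHTO3 and 204, 317 and 338 CPM in AT3 MHTO10. Actb ran the other way, at 9863, 9155 and 8891 CPM in AT3-gcsf MHTO3, and Cfl1 stayed at 1114, 1118 and 1080 CPM there. Deeper cells gather more Tagln2 UMIs: the median was 5512, 5507 and 7440 UMIs per cell in those AT3-gcsf MHTO3 classes, and the part of depth was not tested.

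Ezrin (Ezr, chromosome 17: 6738041 to 6782784) divided the populations as Tagln2 did. It had 95.9, 362 and 291 CPM in AT3-gcsf MHTO4, MHTO5 and MHTO3, 88.4, 305 and 278 CPM in AT3 MHTO7, MHTO8 and MHTO10, and 129, 562 and 322 CPM in naive MHTO4, MHTO5 and MHTO3. The population low in Tagln2 was the lowest of each library. Between conditions, the log2 ratio of summed levels to naive was -0.21 for AT3-gcsf and -0.47 for AT3, but 0.25 and -0.02 under TMM scaling, so the sign for AT3-gcsf depends on the scaling. Moesin (Msn), its relative, had 368, 376 and 429.9 CPM in AT3-gcsf, 264, 390 and 627 CPM in AT3, and 286, 399 and 539 CPM in naive populations, in the tag order above, and its log2 ratio for AT3 MHTO7 against MHTO10 was -1.23.

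**Figure D4:**
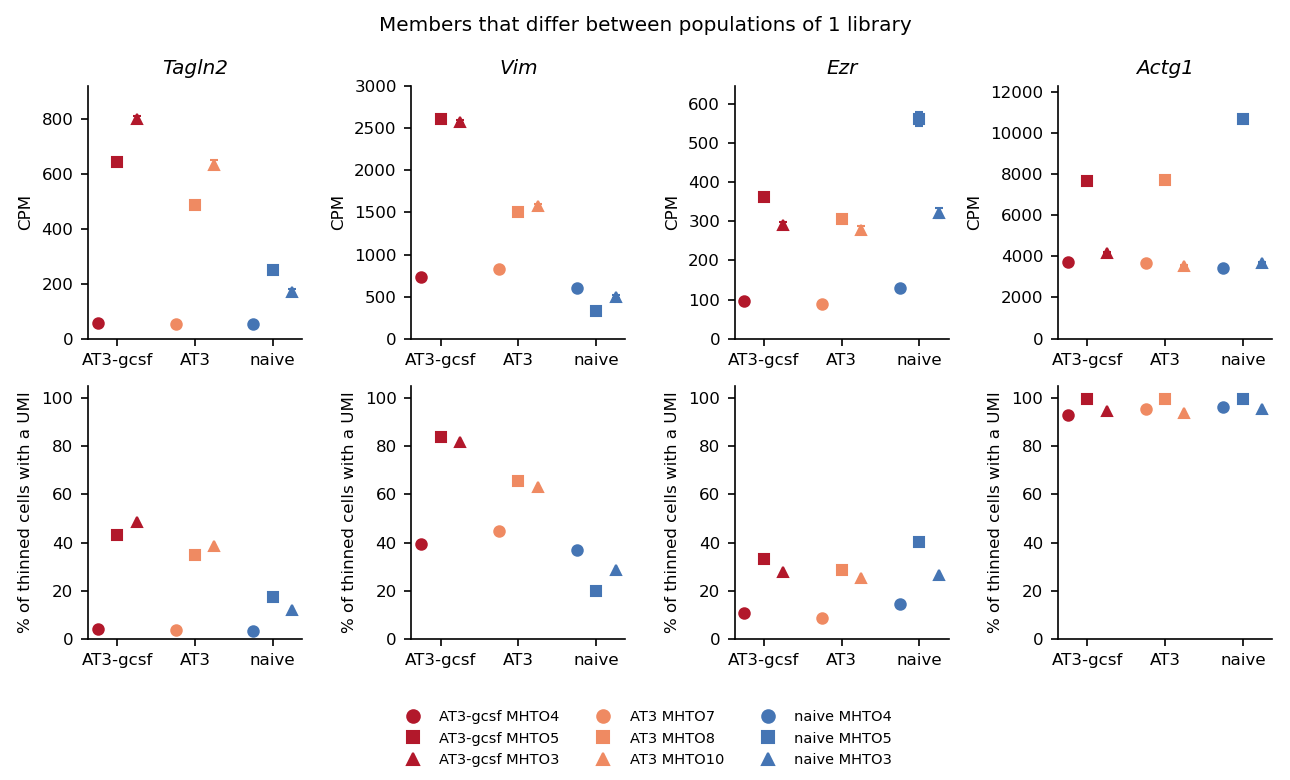
CPM (upper panels, y axes from 0, bars for exact 95% Poisson intervals) of Tagln2, Vim, Ezr and Actg1 in the 3 populations of each condition, and the percentage of cells with a UMI after thinning to 1000 UMIs (lower panels). Tagln2 and Ezr are lowest in AT3-gcsf MHTO4, AT3 MHTO7 and naive MHTO4, and Actg1 is highest in AT3-gcsf MHTO5, AT3 MHTO8 and naive MHTO5.

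Setting the tags of a library side by side, a member is counted when it differed at least 2-fold, with 20 CPM in the higher population. In AT3-gcsf MHTO4 against MHTO3, 3 of 34 members passed, all lower (Tagln2, Vim and Ezr), where 1.29% of 3421 genes passed either way and 1.02% were lower. Tagln2 was the gene with the lowest log2 ratio of all 3421, at -3.72. Vim at -1.82 and Ezr at -1.55 held ranks 9 and 12 from the lowest. In AT3-gcsf MHTO5 against MHTO3, 0 members passed, against 7.16% of genes.

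In AT3 MHTO7 against MHTO10, 5 members passed, against 20.6% of genes. Tmsb10 at 1.41 and Capg at 1.87 were higher, and Tagln2 at -3.48, Ezr at -1.60 and Msn at -1.23 were lower. AT3 MHTO8 against MHTO10 gave 1 member, Actg1, against 12.5% of genes. In naive MHTO4 against MHTO3, 4 members passed, against 27.2% of genes: Tmsb10 at 1.35 and Capg at 2.11 were higher, and Tagln2 at -1.55 and Ezr at -1.28 lower. Naive MHTO5 against MHTO3 gave Actg1 at 1.53 and Arpc3 at 1.01, against 24.4% of genes.

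The members that were higher in AT3 MHTO7 and naive MHTO4 were Tmsb10, another beta-thymosin, and Capg, a calcium-dependent capping protein of phagocytes. Tmsb10 had 416, 259 and 292 CPM in AT3-gcsf MHTO4, MHTO5 and MHTO3, 416, 196 and 153 CPM in AT3 MHTO7, MHTO8 and MHTO10, and 505, 178 and 195 CPM in naive MHTO4, MHTO5 and MHTO3. Capg had 183, 156 and 174 CPM in AT3-gcsf, 247, 89.3 and 63.8 CPM in AT3, and 301, 56.2 and 66.0 CPM in naive populations, in the same order. In each library Tmsb10 was highest in MHTO4 or MHTO7. Capg was close in the 3 AT3-gcsf populations, and in AT3 and naive 1 population stood above the other two.

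Late neutrophil precursors make the granule proteins, and the share of UMIs from Camp, Ngp, Ltf and Lcn2 was used to sort cells into ranges. More than 1% of UMIs came from these 4 genes in 27.9%, 24.8% and 24.8% of cells in AT3-gcsf MHTO4, MHTO5 and MHTO3, in 54.9%, 12.0% and 6.08% in AT3 MHTO7, MHTO8 and MHTO10, and in 61.0% in naive MHTO4. Naive MHTO5 and MHTO3 had 26 and 40 such cells and get no level. The populations high in Tmsb10 and Capg were thus those with most such cells. Levels were recomputed over UMIs without granule genes and S100a8 and S100a9, and cells over 1% were set against cells with 0.1% to 1%.

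In all 7 populations with a value, Capg and Tmsb10 were at least 2-fold higher in cells over 1%, as were 0.953% of 3359 genes. Capg had 493, 399 and 463 CPM in cells over 1%, against 115, 132 and 137 CPM in cells with 0.1% to 1%, in AT3-gcsf MHTO4, MHTO5 and MHTO3. In AT3 MHTO7, MHTO8 and MHTO10 it had 614, 444 and 449 CPM, against 68.1, 41.0 and 40.8 CPM, and in naive MHTO4 665 CPM, against 179 CPM. Its log2 ratio ran from 1.56 to 3.31, and that of Tmsb10 from 1.54 to 2.18.

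Of the 34 members, 19 were higher in cells over 1% in all 7 populations, against 16.2% of all genes, and 2, Arpc5l and Msn, were lower in all 7, against 32.2% of all genes. Among the members higher in all 7, log2 ratios ran from 0.38 to 0.71 for Actb, from 0.55 to 0.89 for Myl6, from 0.38 to 0.81 for Wdr1 and from 0.27 to 0.85 for Myh9. Vim and Tagln2 differed in sign between populations, and Vim ran from -0.17 to 1.44. In AT3 MHTO7, Vim had 1859 CPM in cells over 1%, against 684 CPM in cells with 0.1% to 1%, and in naive MHTO4 1291 CPM, against 475 CPM. Tagln2 had 113 CPM in cells over 1%, against 51.3 CPM, in AT3 MHTO7, and 419 CPM, against 730.2 CPM, in AT3 MHTO8. Cells over 1% were also deeper, with a median of 14018 UMIs per cell in AT3-gcsf MHTO4, against 6308 in cells with 0.1% to 1%, and the part of depth was not tested.

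**Figure D5:**
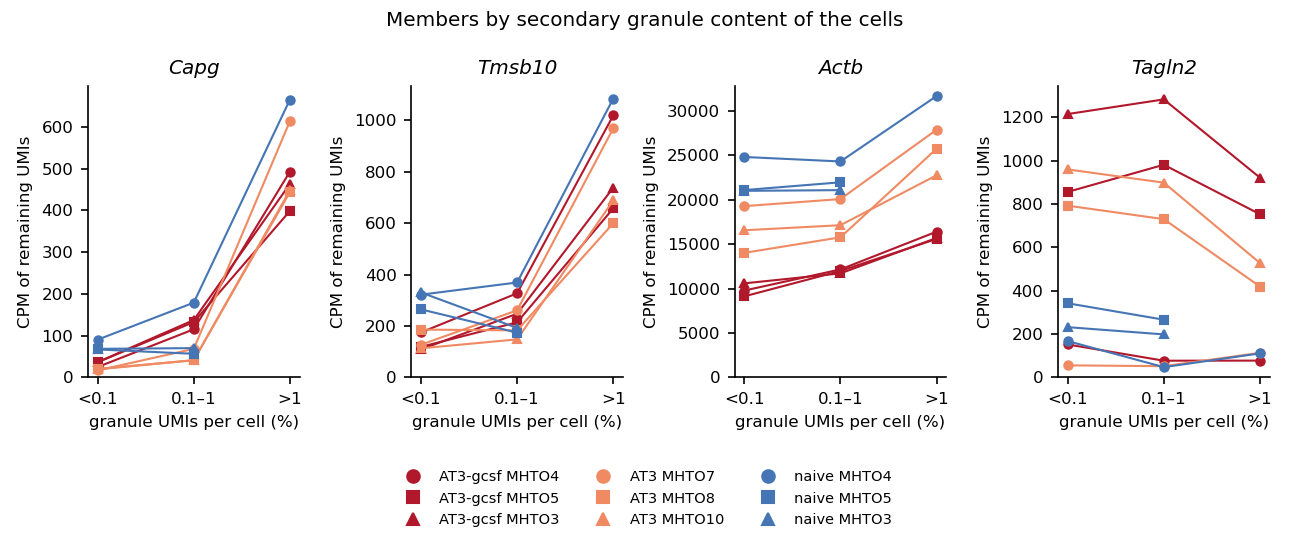
CPM (y axes from 0) of Capg, Tmsb10, Actb and Tagln2 in cells with under 0.1%, 0.1% to 1% and over 1% of UMIs from Camp, Ngp, Ltf and Lcn2 (x axes), 1 line per population; CPM is over UMIs without granule genes, S100a8 and S100a9. Capg and Tmsb10 climb steeply above 1% in the 7 populations with a value, by log2 ratios of 1.56 to 3.31 and 1.54 to 2.18, and Actb by 0.38 to 0.71.

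Gelsolin (Gsn), which severs filaments when calcium rises, had 542, 337 and 399 CPM in AT3-gcsf, 340, 261 and 289 CPM in AT3, and 349, 367 and 474 CPM in naive populations, in the tag order above. AT3 lay below naive without overlap by totals, but not under TMM scaling. The heterodimeric capping protein varied less. Capza1, lower in AT3-gcsf than in naive, had 168, 177 and 183 CPM in AT3-gcsf, 190.1, 181 and 222 CPM in AT3, and 252, 206 and 235 CPM in naive populations. Capza2 ran from 173 to 245 CPM and Capzb from 317 to 486 CPM over the 9 populations. L-plastin (Lcp1), the bundler of white blood cells, had 1110, 1105 and 1221 CPM in AT3-gcsf, 1157, 1311 and 2015 CPM in AT3, and 1269, 1537 and 1979 CPM in naive populations. By totals it was highest in MHTO3 or MHTO10 of each library, but under TMM scaling only in AT3 MHTO10. Coronin 1A (Coro1a), which binds along filaments, was likewise highest there by totals, at 1646 CPM in AT3-gcsf MHTO3, 1726 CPM in AT3 MHTO10 and 2074 CPM in naive MHTO3, and under TMM only in AT3-gcsf MHTO3.

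Counted over the conditions at 2-fold, 4 of 34 members passed in AT3-gcsf against naive, against 26.4% of 4106 genes: Tagln2 (log2 ratio 1.77) and Vim (1.93) were higher and Myh9 (-1.69) and Fmnl1 (-1.40) lower. AT3 against naive gave Tagln2 and Vim, each at 1.28, against 8.4% of 3939 genes. There Tagln2 was under 2-fold without AT3 MHTO8 (0.81), without AT3 MHTO10 (0.92), without naive MHTO4 (0.66) and with no minimum of S100a8 and S100a9 (0.77), and was higher than 1.28 without AT3 MHTO7. AT3-gcsf against AT3 gave 0, against 4.98% of 3551 genes. At 1.5-fold, 3 members were higher in AT3-gcsf than in naive (10% of genes) and 7 lower (38.9% of genes), and 2 were higher in AT3 than in naive (4.21%) and 4 lower (27.1%). At that size AT3-gcsf against AT3 gave Vim higher (7.12% of genes were higher) and Myh9 lower (10.2% were lower). The comparisons share libraries and so are not independent of each other.

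Most genes were lower than in naive on this scale: 80.1% of genes had a log2 ratio below 0 in AT3 against naive, as had 26 of 34 members, and 69.5% in AT3-gcsf against naive, as had 24. In AT3-gcsf against AT3, 52.3% of genes and 18 members were below 0. The members' median was -0.18 and -0.20 in these comparisons, against -0.34 and -0.37 for all genes. Of all genes in AT3 against naive, 2.06% were at least 2-fold higher and 6.35% lower by totals, but under TMM scaling 4.37% were higher among 5.84% past 2-fold either way. In AT3-gcsf against naive, 5.38% were higher and 21% lower by totals, but under TMM 11.1% were higher among 20.3% past 2-fold either way. Under TMM the members called were the same in AT3 against naive, and those in AT3-gcsf against naive were Tagln2, Vim and Myh9, since Fmnl1 at -0.94 missed the 2-fold line.

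Counting members whose 3 populations did not overlap, 15 of 34 were lower in AT3-gcsf than in naive, against 29.5% of genes, and 1, Vim, was higher, against 10.8% of genes. In AT3 against naive, 9 were lower, against 12.7%, and 1 higher, against 3.07%. In AT3-gcsf against AT3, 8 were lower, against 9.6%, and 0 higher, against 13.3%: Actb, Cap1, Arpc4, Arpc5, Actr2, Vasp, Fmnl1 and Myh9. Under TMM scaling the first comparison had 5 lower (14.8% of genes) and 9 higher (32.5%), the second 0 lower (4.69%) and 7 higher (16.1%), and the third 6 lower (11.0%: Tmsb4x, Cap1, Actr2, Fmnl1, Lcp1 and Myh9) and 2 higher (20.1%: Arpc5l and Gsn). Cap1, Actr2, Was, Fmnl1 and Myh9 were the 5 lower members of AT3-gcsf against naive under TMM, and each is among the 15 by totals.

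Markers of other cell types differed between the same conditions. The summed level of 5 dendritic and B cell genes was 6.13 to 18.2 CPM in AT3-gcsf, 7.99 to 56.0 CPM in AT3 and 68.7 to 416 CPM in naive populations, and that of 5 T and NK cell genes 1.24 to 7.53 CPM, 3.29 to 5.71 CPM and 19.3 to 22.1 CPM, with Klrb1c at 0 in all but naive MHTO5. That of 5 platelet genes was 0.553 to 1.34 CPM in AT3-gcsf, 0.761 to 8.75 CPM in AT3 and 4.60 to 75.1 CPM in naive populations, and that of 5 erythroid genes 0.138 to 0.254 CPM, 6.68 to 698 CPM and 52.3 to 1102 CPM. For 7 monocyte and macrophage genes the sums were 280 to 344 CPM, 330 to 781 CPM and 218 to 777 CPM, with Ms4a7 or C1qb at 0 in 4 populations. For 4 lung epithelium genes they were 21.0 to 124 CPM, 72.3 to 182 CPM and 202 to 642 CPM, for 4 endothelium and fibroblast genes 0.322 to 7.44 CPM, 1.33 to 18.7 CPM and 3.19 to 11.0 CPM, for 5 eosinophil, basophil and mast cell genes 14.9 to 37.4 CPM, 6.70 to 25.6 CPM and 14.4 to 31.6 CPM, with Epx at 0 in all, and for 4 early precursor genes 23.5 to 307 CPM, 16.5 to 20.3 CPM and 9.01 to 74.7 CPM, always in the order AT3-gcsf, AT3 and naive. Then 4714 cells, 19.2%, with a dendritic, B, T or NK cell, platelet, erythroid, endothelium or fibroblast marker UMI were left out. Cells whose only such UMIs were of the remaining lists stayed in. Without the 4714 cells, the same members passed at 2-fold in the 3 comparisons of conditions. The strict order of conditions then held for Fmnl1 as well as Actb, Cap1, Actr2 and Myh9, against 4.45% of 3574 genes.

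Beyond the members, 117 genes that control the same machinery were followed in 5 lists. In AT3-gcsf against naive 84 reached 20 CPM, of which 3 were at least 2-fold higher and 23 lower, where 5.38% and 21% of all genes were, with a median log2 ratio of -0.57 against -0.37 for all genes. In AT3 against naive, 0 of 82 were higher and 5 lower, where 2.06% and 6.35% of all genes were (median -0.44 against -0.34), and in AT3-gcsf against AT3 1 of 79 was higher and 1 lower, where 2.42% and 2.56% of all genes were (median -0.22 against -0.02).

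The strongest of these were Eps8, an actin capper and bundler, and the actin regulator Marcksl1. Eps8 had 46.8, 50.1 and 48.8 CPM in AT3-gcsf MHTO4, MHTO5 and MHTO3, 7.32, 24.4 and 30.0 CPM in AT3 MHTO7, MHTO8 and MHTO10, and 0.156, 4.51 and 3.94 CPM in naive MHTO4, MHTO5 and MHTO3. The conditions did not overlap, and the log2 ratio to naive in AT3-gcsf was 2.88. Marcksl1 had 69.4, 149.9 and 60.01 CPM in AT3-gcsf, 101.4, 422 and 125 CPM in AT3, and 97.6, 1197 and 241 CPM in naive populations, in the same tag order. Its naive sum of 419.5 CPM rests on naive MHTO5, and naive MHTO4 lay within the AT3-gcsf range.

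Dock5, an activator of Rac, had 14.6 to 19.2 CPM in AT3-gcsf, 21.9 to 29.6 CPM in AT3 and 46.5 to 75.3 CPM in naive populations. Elmo1, an adaptor of such Dock activators, had 24.99 to 26.1 CPM in AT3-gcsf, 31.0 to 38.6 CPM in AT3 and 74.9 to 90.1 CPM in naive populations. Both kept the strict order of conditions by totals. Vinculin (Vcl), which links adhesions to actin, had 9.82 to 14.7 CPM in AT3-gcsf, 20.6 to 33.6 CPM in AT3 and 25.9 to 89.8 CPM in naive populations. Abi3, of the WAVE complex, was higher in AT3-gcsf than in naive populations at 22.2 to 31.8 CPM against 2.65 to 16.4 CPM, without overlap.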

How the data were processed

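Raw UMI counts per gene and cell were deposited by the authors as 10x matrices, 1 per library, with hashtag counts in separate deposited files. The submitters' processing notes name Cell Ranger 4.0.0, bcl2fastq 2.20.0.422 and mm10. How hashtags were counted is not given in the sources. Per the labels' protocols, 24000 cells were loaded per lane on version 3 chemistry, 8000 per tagged sample.

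A barcode was given to its top tag when that tag held at least 80% of the named tags' counts and at least 20 counts, which also removes doublets of 2 tags; doublets within a tag were not removed. Libraries held 26566384 to 89053674 UMIs in the cells kept. UMIs were summed per population, and no test was run. Log2 ratios add 5 CPM to both levels, and a ratio counts as called at 2-fold with at least 20 CPM in the higher sum. All members are described, those called or not overlapping with values per population; pathway genes are named when among the 3 highest or lowest called ratios of a comparison, and 1 gene list and 2 of its genes are not reported here. Members and lists were chosen with earlier results of these data known. The genes whose promoters are shown, and the classes by Tagln2 UMIs and granule share, were picked after values were seen.

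Alternatives were TMM factors (edgeR 4.0.16, R 4.3.3), totals without S100a8 and S100a9, thinning, equal weights, other cell and tag filters, and leaving out each population. Ratios were also taken with 1 CPM added in place of 5, and without the 20 CPM minimum. Scripts used Python 3.11.15, numpy 2.4.6, scipy 1.17.1, pandas 2.3.3 and matplotlib 3.10.9. The log2 ratio and the 2-fold call were tested on simulated Poisson sums with known changes larger than 2-fold. Tag assignment, cell filters, thinning and granule ranges were not tested in that way. Near-identical copies and processed pseudogenes of the actins, Cfl1, Pfn1 and Tmsb4x can take or lend reads, so their levels are uncertain to that extent.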

Additional observations from a re-analysis of the deposited data

How the results depend on the processing

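The number of libraries, 1 per condition, limits every comparison, and counting intervals do not cover it. The summed level of the members, as a log2 ratio, was -0.22 in AT3 against naive, -0.39 in AT3-gcsf against naive and -0.18 in AT3-gcsf against AT3. In that order it reversed to 0.24 and 0.0774 under TMM scaling, where AT3-gcsf against AT3 was at -0.16. It was -0.10, -0.34 and -0.24 with S100a8 and S100a9 out of the totals, -0.26, -0.46 and -0.20 after thinning, -0.25, -0.44 and -0.19 as a mean over cells, -0.19, -0.35 and -0.16 with no minimum of S100a8 and S100a9, and -0.25, -0.43 and -0.18 with equal weights. With a 5% minimum, AT3-gcsf was at -0.39 against naive and -0.17 against AT3. Without cells holding certain other cell types' markers, an alternative chosen after seeing the data, AT3 and AT3-gcsf against naive were at -0.23 and -0.41. Leaving out 1 population gave -0.34 to -0.17, -0.51 to -0.35 and -0.19 to -0.16. The cause of these shifts was not tested.

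Actg1 passed 2-fold in AT3-gcsf MHTO5 against MHTO3 as the 1 member called under TMM scaling, after thinning and as a mean over cells, against 0 by totals. In AT3 against naive, Vim alone passed (1 member) with no minimum of S100a8 and S100a9. Leaving out 1 population gave 1 to 4 members there: Vim without AT3 MHTO8 or without AT3 MHTO10, Capg, Tagln2, Myh9 and Vim without AT3 MHTO7, and Fmnl1, Capg, Vim and Ezr without naive MHTO4. Tagln2 was then at 0.81 without AT3 MHTO8, 0.92 without AT3 MHTO10 and 0.66 without naive MHTO4. In AT3-gcsf against AT3 it gave 0 to 2, with Tagln2 and Vim without AT3-gcsf MHTO4 and Capg without AT3 MHTO7. These counts are given without the share of all genes under each alternative, so they are not read as changes in the members. Within libraries, Ezr in naive MHTO4 against MHTO3 was at -0.82 under TMM and -0.88 with S100a8 and S100a9 out of the totals, and Msn in AT3 MHTO7 against MHTO10 at -0.77 and -0.94. Of called single members, 262 values stayed past 2-fold under an alternative and 11 did not, and none changed sign. The alternatives counted include adding 1 CPM in place of 5 and dropping the 20 CPM minimum. Neither can undo a call, so part of the 262 was fixed in advance. Of values not called by totals, 25 passed 2-fold under an alternative, 1413 moved by more than counting error and 2489 did not. No paired analysis was possible because the labels match no tagged population of a library with any of the other libraries.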
